A study of Mus musculus with 22 samples.

Results

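Genes for enzymes that write or remove marks on histones, 70 in all, were followed through 6 cell types sorted from the crypts of the mouse colon. The genes were chosen by name: lysine methyltransferases (Kmt, Setd, Ezh and Whsc1), lysine demethylases (Kdm), lysine acetyltransferases (Kat), deacetylases (Hdac and Sirt) and protein arginine methyltransferases (Prmt), together with Suz12 and Eed, the partners that Ezh1 and Ezh2 need. They made up 70 of the 24421 genes counted. All mice were untreated, wild-type C57BL/6N males aged 5–7 weeks, and every sorted cell was live and carried Epcam, the epithelial surface marker, but neither Cd31 nor Cd45. The 22 libraries were 3 of stem cells (Stem; highest Cd44, low Cd24, no Ckit), 3 of absorptive progenitors (AbsPro; medium to high Cd44, low Cd24, no Ckit), 4 of a mixed secretory gate (SecPDG: progenitors, deep crypt secretory cells and perhaps some goblet cells; high Cd44, medium Cd24 and medium Ckit by the labels, although the study's text gives medium Cd44 and Kit protein in tuft cells alone), 5 of tuft cells (Tuft; Ckit and high Cd24), 5 of enterocytes (low or no Cd44, no Cd24) and 2 of enteroendocrine cells (EEC; low or no Cd44, Cd24 present). Each Stem and AbsPro library came from 1 mouse, whereas libraries of the other types held cells pooled from several mice; replicates came from separate mice or pools and separate sorts.

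Histone marks are set by enzymes with opposed activities. Polycomb repressive complex 2 (PRC2), made of Ezh2 or Ezh1 with Suz12 and Eed, methylates lysine 27 of histone H3 and holds genes silent, and Kdm6a and Kdm6b take that mark off. The Kmt2 and Setd1 enzymes place the lysine 4 marks of active enhancers and promoters, acetyltransferases open chromatin and deacetylases close it. In the intestinal crypt, PRC2 is known to maintain proliferation of the stem and progenitor compartment, and several of these enzymes are produced at higher levels in dividing cells of many tissues.

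The libraries held 4122122 to 22462518 counts on genes, fewest in EEC and enterocytes. Reads that fell on no annotated gene made up 40.9% to 49.4% of reads in Stem, AbsPro and SecPDG, 43.4% to 68.0% in Tuft, 66.8% to 83.1% in enterocytes, and 64.5% and 89.7% in EEC. A background level, taken from families of genes silent in gut epithelium as far as known, ran from 0.0368 to 0.569 normalized counts per kilobase in the first 3 types, from 0.549 to 3.26 in Tuft, from 2 to 5.92 in enterocytes and reached 8.6 in EEC 1. Marker lists were highest in their own types for stem, tuft and enteroendocrine genes. The stem list holds Cd44 and the tuft list Cd24a, which the sort used, so these sums are in part set by the sort. The other genes of both lists also had their highest means there. The sum of the enterocyte list was as high in AbsPro (67215 to 102747 normalized counts) as in enterocytes (50311 to 75192) and stood at 22047 and 135168 in EEC. Car1 made up most of it in AbsPro and enterocytes (means 67472 and 36459). Car4, Slc26a3, Aqp8 and Krt20 were higher in enterocytes than in AbsPro (5246 against 561, 3825 against 2680, 1197 against 80, 9908 against 4000), and Guca2a was lower (4846 against 5673). The sum of the secretory list was as high in Tuft (660960 to 1097653) as in SecPDG (604871 to 2317645). Of that list, Muc2 was higher in Tuft (675084 against 636060), and Atoh1, Spdef, Clca1, Reg4 and Agr2 were lower. Summed immune markers were 160 to 166 in Stem, 1570 to 3573 in Tuft, 461 to 1243 in enterocytes and 568 to 2560 in EEC, and the median sums of stromal and endothelial markers were also higher in those types than in Stem; their part in the results was not tested. The count files of SecPDG and Tuft were named in a way of their own. No label says whether this marks a processing batch, and such a batch could not be told apart from the cell type. In bulk RNA, fewer cells expressing a gene and less RNA per cell cannot be told apart.

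Across the 6 cell types, 25 of the 68 enzyme genes with a mean of at least 50 normalized counts differed (36.8%; edgeR's quasi-likelihood test, Benjamini-Hochberg adjusted p under 0.01 over all genes, the rule for every call here), against 58.1% of all 13188 such genes. The difference between these shares was not tested. Normalized counts are counts scaled to a common library size, and genes are compared with each other only per kilobase of exon. Per kilobase, Setd8, the enzyme that places the first methyl group on lysine 20 of histone H4, stood highest at 661 normalized counts over the cell types, ahead of Kdm6b (449) and Kmt2d (405), and Hdac9 lay lowest of the 70, at 7.51. Summed over the 70 genes, they took 652 to 744 of every 100000 counts in Stem, 585 to 729 in Tuft, 569 to 685 in AbsPro, 518 to 645 in enterocytes, 489 to 563 in SecPDG, and 620 and 810 in EEC. The mean of 27 of the 70 genes was highest in Stem, of 14 in EEC, of 12 in SecPDG, of 10 in AbsPro, of 6 in Tuft and of 1 in enterocytes, while 33 were lowest in enterocytes and 21 in EEC. These orders depend on the scaling between libraries. The same counts over all genes are not given, so they say nothing particular of the enzyme genes.

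Compared with Stem, the number of enzyme genes called ran from 0 in AbsPro to 20 in enterocytes. In AbsPro 0 of 68 were called by edgeR (4 had an unadjusted p under 0.05, and the DESeq2 Wald test called Prmt1 and Whsc1), where 1.02% of all genes were called, 0.857% higher and 0.159% lower, so the count of 0 says nothing particular of the enzyme genes. In SecPDG edgeR called Setd4 alone, lower, against 8.6% of all genes (5.84% higher, 2.76% lower). DESeq2 called 4 others there and not Setd4: Kdm4c and Kdm7a higher, and Prmt1 and Whsc1 lower. The fit of SecPDG and Stem alone gave 7 calls and scaling by library totals 12. In Tuft, 0 rose and 8 fell, or 11.8% of the 68, against 20.8% of all genes, of which 13.5% were higher and 7.31% lower. In enterocytes 1 rose and 19 fell, or 1.47% and 27.9%, against 18.5% and 19.8% of all genes (38.4% in either direction). In EEC 5 rose and 9 fell, or 7.35% and 13.2%, against 18.6% and 15.8% of all genes (34.4% in either direction). The counts in Tuft, enterocytes and EEC moved with single libraries: without EEC 1, 15 were called in Tuft and 42 in enterocytes, without AbsPro 3 or Tuft 4, 31 in enterocytes, without EEC 2, 24 in EEC, and without Stem 2, Tuft 1, Tuft 2 or Tuft 3, 4 or 5 in Tuft.

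**Figure D1:**
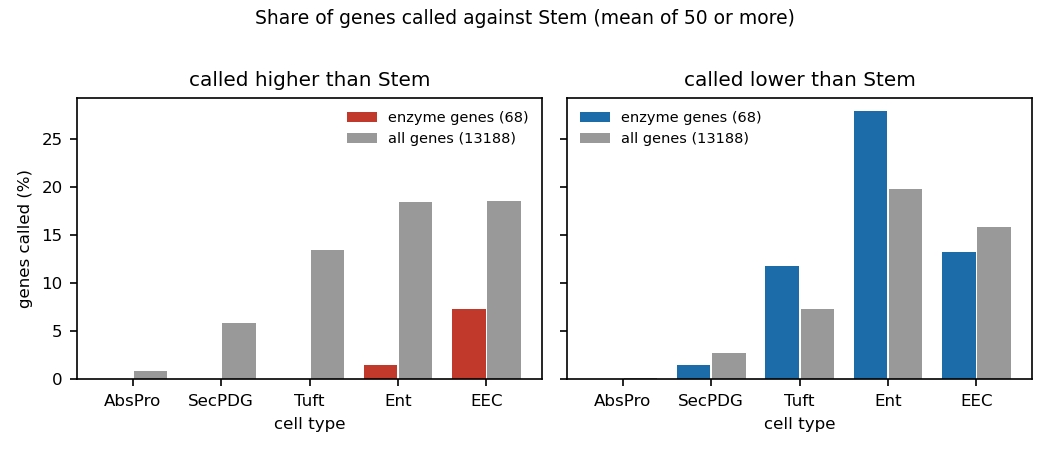
Percent of the 68 enzyme genes (coloured bars) and of all 13188 genes (grey bars) with a mean of at least 50 normalized counts that were called higher (left) or lower (right) than Stem in each cell type; Ent, enterocytes. The coloured bars for genes called lower stand at 11.8% in Tuft and 27.9% in enterocytes, beside 7.31% and 19.8% of all genes; the difference was not tested, and the split into higher and lower changes with the scaling.

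The shares in the plot are a description, with no test of enzyme genes against all genes. The split into higher and lower changed with the scaling. With TMM, the scaling used here, the median of all genes lay at -0.30 on the log2 scale in both enterocytes and EEC, and with the size factors of DESeq2 at 0.35 and 0.48. Under those size factors 8 enzyme genes rose and 16 fell in enterocytes, 5 and 9 in Tuft, and 11 and 8 in EEC; scaled by library totals, 7 and 16, 2 and 10, and 9 and 10. In enterocytes the median log2 change of the enzyme genes less that of all genes was -0.30 with TMM, -0.43 with size factors and -0.42 with library totals, and in Tuft -0.21, -0.29 and -0.29. In EEC it was -0.09, -0.26 and -0.26, but 0.18 without Enterocyte 1 to 3 and EEC 1, the 4 libraries with over 75% of reads on no gene. Of the 70 genes, 6 (Ezh2, Hdac3, Kat2a, Prmt1, Prmt5 and Prmt7) were called lower than the same 3 Stem libraries in all of Tuft, enterocytes and EEC. The share of all genes called lower in all of these types is not given, so this count says nothing particular of the enzyme genes. The Tuft calls of Ezh2, Hdac3 and Kat2a and the EEC calls of Hdac3 and Prmt7 were each lost when certain single libraries were left out.

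**Figure D2:**
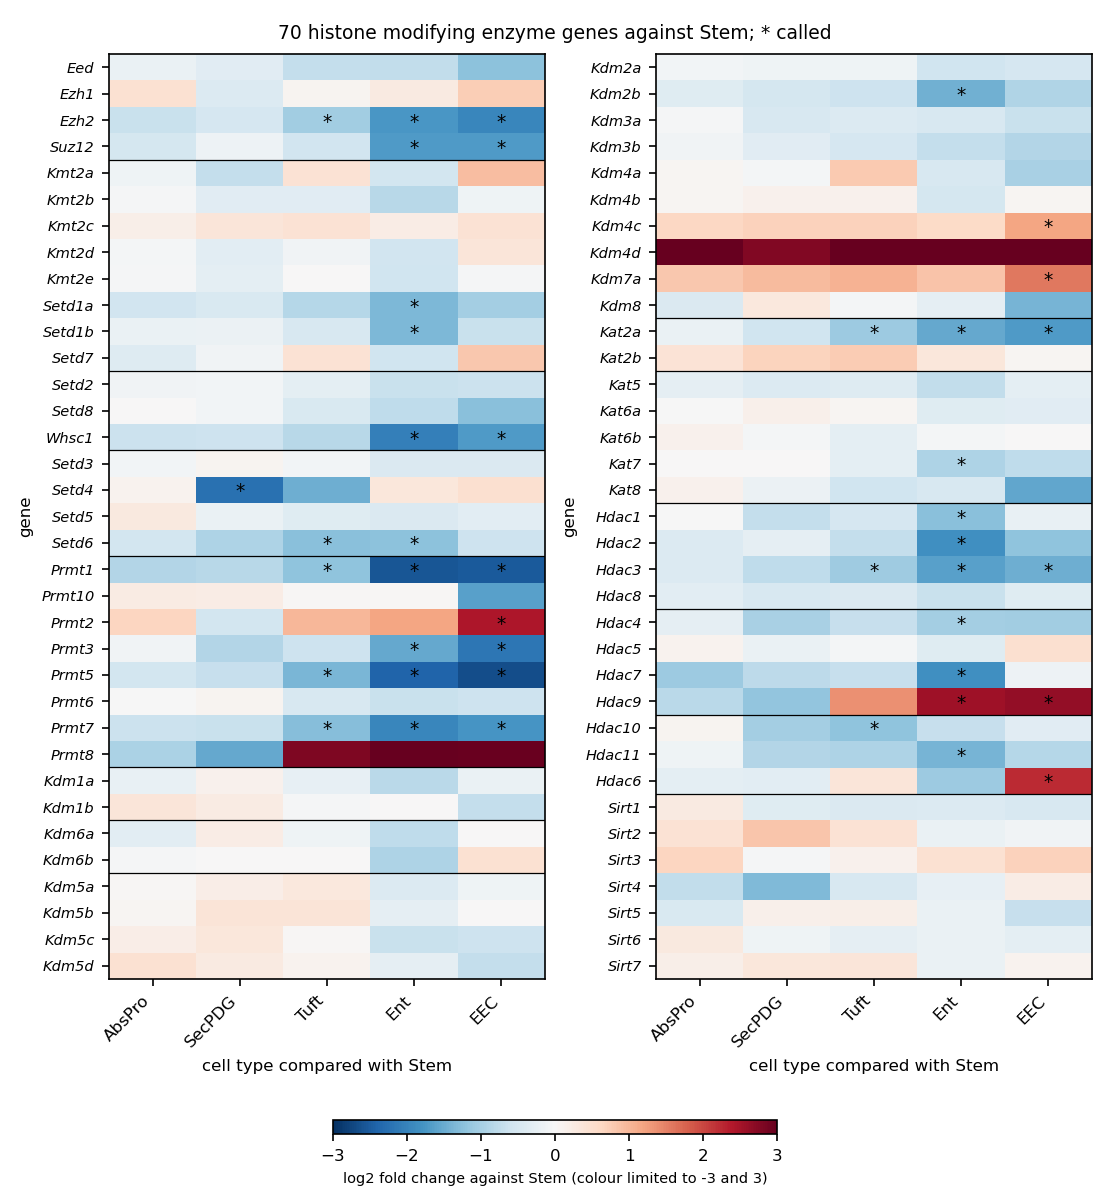
Log2 fold change of each of the 70 genes (rows, grouped by role with lines between groups) against Stem in 5 cell types (columns), blue where lower and red where higher, with an asterisk where called. Blue fields with asterisks gather in the enterocyte column, where 19 genes fell, and the sirtuins (Sirt1 to Sirt7) carry none; Kdm4d and Prmt8, dark red in the mature types, had means under 50 normalized counts and could not be called.

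Ezh2, the main H3K27 methyltransferase of dividing cells (chr6:47530139-47595341, minus strand, GRCm38), was highest in Stem and fell in all 3 mature types. Its normalized counts were 1424, 1915 and 2057 in the Stem libraries, 1237, 1077 and 1102 in AbsPro, 859, 1194, 1512 and 1526 in SecPDG, 480, 919, 461, 1056 and 1407 in Tuft, 417, 493, 373, 728 and 670 in enterocytes and 354 and 557 in EEC. The 3 Stem libraries lay above every Tuft, enterocyte and EEC library, AbsPro was intermediate and SecPDG overlapped Stem. Against Stem, Ezh2 was 2.06-fold lower in Tuft (log2 fold change -1.04 ± 0.30 SE, padj 0.00739), 3.35-fold lower in enterocytes (-1.75 ± 0.31, padj 1.16e-05) and 3.88-fold lower in EEC (-1.95 ± 0.44, padj 0.000279; edgeR's quasi-likelihood test). The Tuft call was lost without any one of Stem 2, Stem 3, Tuft 1, Tuft 2 or Tuft 3, with log2 changes of -1.06 to -0.89 and adjusted p-values of 0.0144 to 0.032, whereas those in enterocytes and EEC held when any single library was left out.

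Suz12 (chr11:79993106-80034123, plus strand), the zinc finger subunit without which PRC2 is unstable, was called lower in enterocytes and EEC, like Ezh2, but was not called in Tuft. Stem libraries held 1096, 1721 and 1881 normalized counts of Suz12, AbsPro 1251, 832 and 1206, SecPDG 1327, 1453, 1295 and 1576, Tuft 795, 922, 977, 1116 and 1416, enterocytes 319, 444, 265, 839 and 539 and EEC 268 and 656. Enterocytes and EEC lay below every Stem library, while Tuft and the progenitors overlapped Stem. It was 3.24-fold lower in enterocytes (padj 1.86e-05) and 3.28-fold lower in EEC (padj 0.000999) by edgeR's quasi-likelihood test. In Tuft its log2 change was -0.58 ± 0.30 (padj 0.119). Whether Suz12 and Ezh2 differ in Tuft was not tested.

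Eed (chr7:89954654-89980983, minus strand), which reads the H3K27 mark and stimulates the complex, was not called in any comparison. Normalized counts of Eed were 633, 894 and 989 in Stem, 804, 481 and 911 in AbsPro, 609, 532, 800 and 726 in SecPDG, 577, 522, 287, 495 and 647 in Tuft, 295, 452, 395, 681 and 699 in enterocytes and 134 and 539 in EEC. Its libraries overlapped between Stem and all types other than EEC, where the log2 change was -1.24 ± 0.44 (padj 0.0185). An antisense gene covers 6.8% of its exon bases, and without strand in the counting reads of the pair cannot be told apart. Ezh1 (chr11:101191115-101226463, minus strand), the paralog of Ezh2 found in non-dividing cells of many tissues, had its highest value in EEC 2. Ezh1 stood at 448, 779 and 968 normalized counts in the Stem libraries, 1026, 887 and 1093 in AbsPro, 337, 763, 434 and 692 in SecPDG, 607, 640, 959, 777 and 907 in Tuft, 708, 957, 593, 1142 and 996 in enterocytes and 593 and 1789 in EEC. Ezh1 was not called by edgeR with TMM, with log2 changes against Stem from -0.42 ± 0.34 in SecPDG to 0.73 ± 0.39 in EEC. With the size factors of DESeq2 it was called higher in enterocytes (0.81, padj 0.00326) and EEC (1.33, padj 0.000248). The DESeq2 Wald test made both calls (0.82 and 1.29, adjusted p 0.00178 and 8.4e-05). It also called Ezh1 lower in SecPDG than in AbsPro (-0.85, adjusted p 0.00849), where the libraries did not overlap. Against SecPDG, that test called Ezh1 higher in Tuft (0.72, adjusted p 0.0096) and EEC (1.69, adjusted p 5.05e-08).

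**Figure D3:**
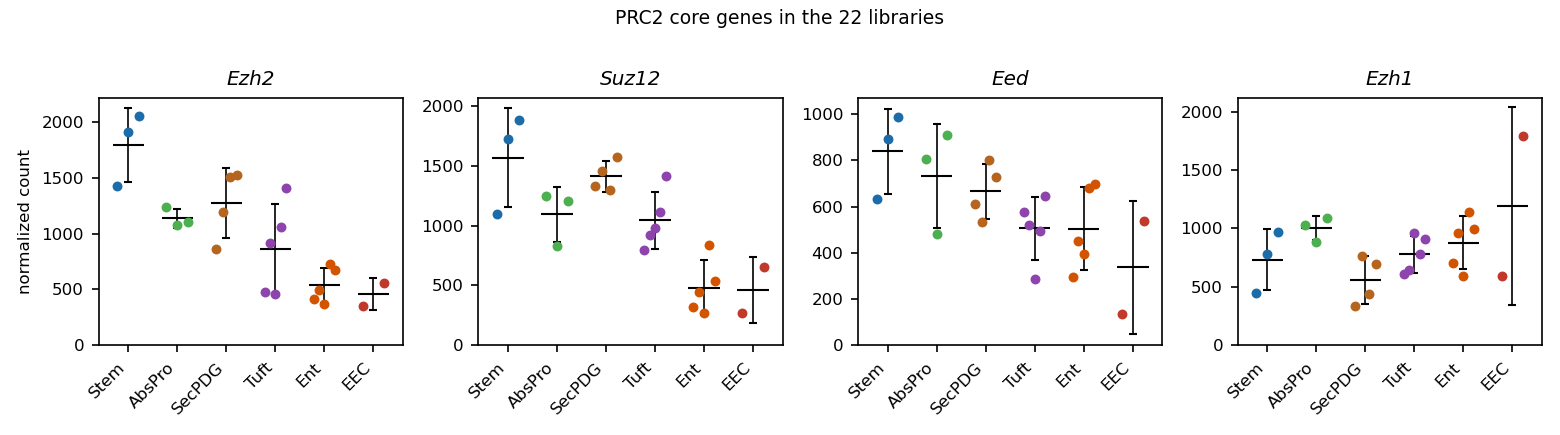
Normalized counts (vertical axes, linear and including 0) of the PRC2 core genes Ezh2, Suz12, Eed and Ezh1 in each library (points) of the 6 cell types, with mean (line) and SD (bars; for EEC over 2 libraries). Ezh2 lies between 1424 and 2057 in Stem and between 354 and 728 in enterocytes and EEC, whereas Ezh1 shows no such step.

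A list of 12 genes of proliferation summed to 43651 to 55762 normalized counts in Stem, 41953 to 53620 in SecPDG, 30192 to 35921 in AbsPro, 18638 to 35051 in Tuft, 4369 to 14252 in enterocytes and 2478 to 4239 in EEC. That order follows the order of Ezh2 across the mature types, and its part in the changes of Ezh2, Suz12 and the arginine methyltransferases was not tested. Promoters of 57 of the 70 genes (250 bases before to 50 after the start site, RefSeq, GRCm38.p6) were searched on both strands for the letters TTTCCCGC, TTTCGCGC, TTTGCCGC and TTTGGCGC, a form known to be bound by E2F factors, which drive genes of the cell cycle. They stood in 744 of 32851 promoters (2.26%) and in 4 of the 57 (7.02%). Of the 21 enzyme genes called lower than Stem in at least 1 type, 16 had a promoter to search, whereas Hdac1, Hdac3, Hdac10, Setd1b and Whsc1 had none. The letters stood in 3 of these 16 (18.8%), namely Ezh2, Kat2a and Suz12, and in 1 of the other 41 promoters (2.44%), that of Sirt4. The difference between these shares was not tested. The promoters of Ezh2 (chr6:47594981-47595280, minus strand) and Suz12 (chr11:79992856-79993155, plus strand) are shown 5′ to 3′, since both PRC2 genes that fell carry a match, given in capitals.
Ezh2: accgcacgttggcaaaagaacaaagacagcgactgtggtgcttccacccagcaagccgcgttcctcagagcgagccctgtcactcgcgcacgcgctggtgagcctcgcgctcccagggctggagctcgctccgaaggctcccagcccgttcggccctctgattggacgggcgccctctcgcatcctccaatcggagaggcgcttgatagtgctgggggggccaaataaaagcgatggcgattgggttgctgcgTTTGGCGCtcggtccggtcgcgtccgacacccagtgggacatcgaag
Suz12: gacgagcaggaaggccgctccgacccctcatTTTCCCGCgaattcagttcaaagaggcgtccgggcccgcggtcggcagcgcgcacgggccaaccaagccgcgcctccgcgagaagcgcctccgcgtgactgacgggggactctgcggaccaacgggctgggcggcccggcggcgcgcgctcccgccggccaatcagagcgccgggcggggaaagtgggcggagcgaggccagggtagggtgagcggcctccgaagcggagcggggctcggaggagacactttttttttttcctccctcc
In Ezh2 the match begins 3 bases past the start site and in Suz12 219 bases before it; a match of letters is a description of the sequence and not of a bound site.

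Among the other lysine methyltransferases, Whsc1 fell in enterocytes and EEC. Whsc1, also known as Nsd2, places the dimethyl mark on lysine 36 of H3 (chr5:33820725-33897975, plus strand). The libraries gave 2786, 3953 and 3877 normalized counts in Stem, 2319, 2385 and 2122 in AbsPro, 2121, 2307, 2142 and 2578 in SecPDG, 1816, 1682, 1710, 1996 and 2626 in Tuft, 709, 748, 551, 1282 and 1002 in enterocytes and 597 and 1547 in EEC. All enterocyte and EEC libraries lay below every Stem library, and so did every library of the other 3 types, in each of which DESeq2, but not edgeR, called Whsc1. The gene was 4.12-fold lower in enterocytes (padj 3.78e-07) and 3.23-fold lower in EEC (padj 0.000614), while in Tuft the log2 change of -0.84 ± 0.29 did not pass (padj 0.0232, edgeR's quasi-likelihood test). Prmt1 and Whsc1 are among the genes that the study picked out from these same samples, so their direction is not independent evidence.

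Setd8 (chr5:124439930-124462308, plus strand), the highest member per kilobase, was not called by edgeR in any comparison, while DESeq2 called it in EEC against Stem and against SecPDG. Its normalized counts were 4146, 4581 and 4719 in the Stem libraries, 5074, 3824 and 4777 in AbsPro, 3678, 4789, 4020 and 4516 in SecPDG, 3413, 2590, 2719, 2964 and 4581 in Tuft, 1657, 2102, 1846, 3812 and 3748 in enterocytes and 888 and 2831 in EEC. Enterocyte and EEC libraries lay below those of Stem, with log2 changes of -0.77 ± 0.33 (padj 0.038) and -1.25 ± 0.44 (padj 0.0167). Of the 8 genes for H3K4 methyltransferases, Setd1a and Setd1b, catalytic subunits of the complexes that mark promoters, fell in enterocytes, and edgeR called none of the 8 against Stem in any other type. In Tuft, DESeq2 called Kmt2a and Kmt2c higher (log2 change 0.66 each) and Setd1a lower (-0.66). It also called Kmt2c higher in enterocytes (0.75) and Kmt2a, Kmt2c, Kmt2d and Setd7 higher in EEC (0.90 to 1.46). Over the 9 contrasts, 13 of the 72 tests of these genes had an unadjusted p under 0.05 in edgeR. Kmt2d (chr15:98831669-98871204, minus strand), which marks enhancers, was not called by edgeR. Stem libraries held 8498, 8358 and 8862 normalized counts of Kmt2d, AbsPro 7943, 7325 and 9371, SecPDG 6581, 8346, 5481 and 7264, Tuft 9765, 5626, 8693, 7543 and 8015, enterocytes 5399, 5561, 3157, 8984 and 5717 and EEC 5039 and 16923. Its EEC 2 value was the highest of all and that of EEC 1 was below every Stem library.

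Setd4 and Setd6, SET domain enzymes with targets that include non-histone proteins, had patterns of their own. Setd4 (chr16:93583457-93604063, minus strand) was the only enzyme gene that edgeR called in SecPDG. Normalized counts of Setd4 were 42.1, 234 and 275 in Stem, 241, 194 and 163 in AbsPro, 41.6, 46, 14.3 and 60.7 in SecPDG, 0, 93.4, 22.8, 96.6 and 109 in Tuft, 145, 223, 218, 330 and 266 in enterocytes and 365 and 178 in EEC. SecPDG lay below every AbsPro, enterocyte and EEC library, but Stem 1, at 42.1, fell within the SecPDG range and apart from the other Stem libraries. Setd4 was 4.72-fold lower in SecPDG than in Stem (padj 0.00542) and 5.08-fold lower than in AbsPro (padj 0.00446) by edgeR's quasi-likelihood test. DESeq2 made neither call (adjusted p 0.0447 and 0.0363). The first call was lost without Stem 2, Stem 3, SecPDG 1, SecPDG 2 or SecPDG 3 (log2 change -2.26 to -1.83, adjusted p 0.0171 to 0.0763) and the second without AbsPro 1, AbsPro 2, SecPDG 1, SecPDG 2 or SecPDG 3 (-2.37 to -2.02, adjusted p 0.0137 to 0.0395).

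Setd6 (chr8:95715881-95719010, plus strand) fell in Tuft and enterocytes. Setd6 stood at 357, 335 and 407 normalized counts in the Stem libraries, 254, 231 and 265 in AbsPro, 202, 182, 131 and 262 in SecPDG, 142, 206, 36.7, 197 and 177 in Tuft, 127, 139, 164, 177 and 172 in enterocytes and 146 and 308 in EEC. No Tuft or enterocyte library reached the Stem range. The fall was 2.39-fold in Tuft (padj 0.0055) and 2.34-fold in enterocytes (padj 0.00306). The Tuft call was lost without Stem 1, Stem 2, Stem 3 or Tuft 3 (log2 change -1.32 to -1.02, adjusted p 0.0102 to 0.026), and the enterocyte call under 7 of 12 alternative analyses. DESeq2 made neither call (adjusted p 0.0159 in Tuft and 0.133 in enterocytes).

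Arginine methyltransferases held the 3 largest falls against Stem of all called genes among the 70. Of 8, Prmt1, Prmt5 and Prmt7 fell in Tuft, enterocytes and EEC, Prmt3 fell in enterocytes and EEC, and Prmt2 was called higher in EEC. Of all genes, 7.31%, 19.8% and 15.8% were called lower in Tuft, enterocytes and EEC, and the difference was not tested. Prmt1 (chr7:44975989-44986568, minus strand) makes most of the asymmetric dimethylarginine of the cell. The libraries gave 1160, 1375 and 1391 normalized counts in Stem, 758, 669 and 697 in AbsPro, 531, 673, 809 and 915 in SecPDG, 414, 505, 517, 523 and 862 in Tuft, 186, 142, 141, 394 and 235 in enterocytes and 186 and 261 in EEC. Stem stood above all other types without overlap, and enterocytes and EEC below Tuft. The gene was 2.29-fold lower than in Stem in Tuft (padj 0.00139), 5.94-fold lower in enterocytes (log2 fold change -2.57 ± 0.31, padj 4.84e-09) and 5.74-fold lower in EEC (-2.52 ± 0.45, padj 9.33e-06; edgeR's quasi-likelihood test).

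Prmt5 (chr14:54507187-54517525, minus strand), the main source of symmetric dimethylarginine, moved the same way. Its normalized counts were 1822, 1958 and 1545 in the Stem libraries, 1277, 1253 and 1075 in AbsPro, 1073, 1038, 1078 and 1239 in SecPDG, 614, 501, 641, 636 and 1008 in Tuft, 275, 274, 225, 495 and 415 in enterocytes and 81.4 and 438 in EEC. Its Stem libraries lay above those of all other types. Falls of 2.58-fold in Tuft (padj 0.000344), 5.26-fold in enterocytes (padj 2.08e-08) and 6.35-fold in EEC (padj 3.7e-06) were each called under all 12 alternative analyses and without any single library. Prmt7 (chr8:106210936-106252794, plus strand), which adds a single methyl group, was lower in the same types. Stem libraries held 1177, 1034 and 965 normalized counts of Prmt7, AbsPro 694, 721 and 622, SecPDG 798, 599, 629 and 629, Tuft 238, 429, 441, 473 and 594, enterocytes 262, 196, 229, 371 and 302 and EEC 428 and 215. Stem again stood above all others, and Tuft overlapped enterocytes. The falls were 2.41-fold (padj 0.000689), 3.89-fold (padj 7.91e-07) and 3.41-fold (padj 0.000471); without EEC 2 the last was not called (log2 change -1.31, adjusted p 0.0216), nor was it by DESeq2 (-0.80, adjusted p 0.0843). Antisense exons of a neighbour overlap 4% of Prmt7.

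Prmt3 (chr7:49778346-49858265, plus strand), a methyltransferase of a ribosomal protein, was lower in the absorptive and enteroendocrine ends. Normalized counts of Prmt3 were 277, 552 and 437 in Stem, 425, 357 and 408 in AbsPro, 160, 296, 178 and 308 in SecPDG, 316, 177, 350, 179 and 342 in Tuft, 139, 145, 87.8, 170 and 191 in enterocytes and 47 and 130 in EEC. Enterocyte and EEC values lay below every Stem value, by 2.91-fold (padj 0.000389) and 4.47-fold (padj 0.00102). Prmt2 (chr10:76207222-76237865, minus strand), a coactivator of nuclear receptors, was called 5.36-fold higher in EEC (padj 0.000697), but only 1 library carried the difference. Prmt2 stood at 52, 52.5 and 68.7 normalized counts in the Stem libraries, 75.6, 94.3 and 106 in AbsPro, 3.78, 48.5, 51.4 and 55.8 in SecPDG, 64.7, 89.6, 89.7, 208 and 120 in Tuft, 126, 161, 122, 155 and 92.8 in enterocytes and 32.5 and 535 in EEC. EEC 2 was the highest of the 22 libraries and EEC 1 lay below all of Stem, so the groups overlapped. Without EEC 2 the log2 change in EEC turned to -0.83. Every AbsPro and enterocyte library lay above all of Stem. In enterocytes edgeR did not call Prmt2 (log2 change 1.19, padj 0.0504), while DESeq2 did (1.79, adjusted p 0.00944).

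Prmt8 (chr6:127689011-127769472, minus strand), the paralog of Prmt1 known from neurons, was near the floor. The libraries gave 15.3, 7.68 and 0 normalized counts in Stem, 2.83, 0 and 9.38 in AbsPro, 0, 7.46, 0.842 and 2.94 in SecPDG, 76.9, 46.7, 85.9, 58.7 and 7.53 in Tuft, 127, 78, 120, 33.1 and 62.3 in enterocytes and 107 and 24.3 in EEC. Values were higher in most Tuft, enterocyte and EEC libraries than in Stem, from raw counts of 0 to 104. Its mean over libraries was under 50, so no call could be made; the log2 change in enterocytes was 3.47 ± 0.84 (padj 0.000635), and background accounted for 14.1% of the enterocyte mean.

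**Figure D4:**
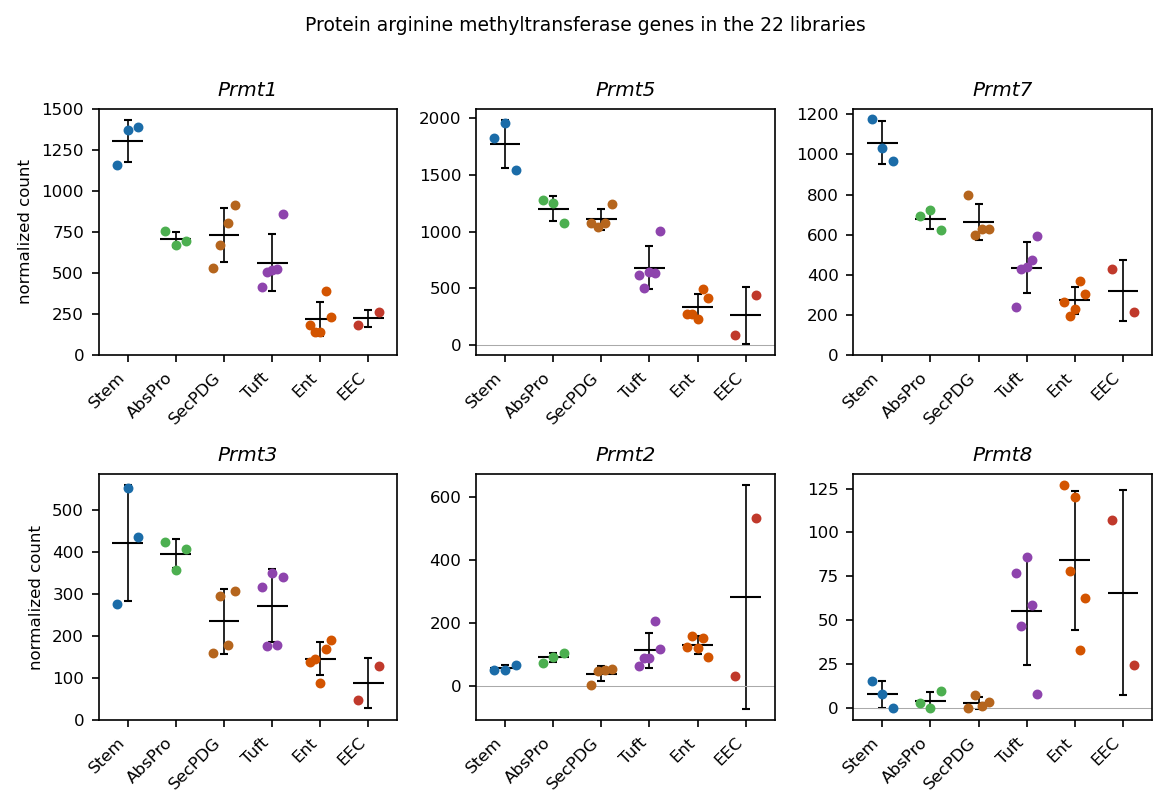
Normalized counts (vertical axes, linear and including 0) of 6 arginine methyltransferase genes in each library (points) of the 6 cell types, with mean (line) and SD (bars). Prmt1, Prmt5 and Prmt7 are highest in Stem and lowest in enterocytes and EEC, while the EEC mean of Prmt2 rests on 1 library at 535 beside 1 at 32.5.

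Demethylases gave 4 calls by edgeR in the 9 contrasts. Of all genes, between 1.02% and 38.4% were called in each contrast, and the demethylases were not tested against them. The 2 flavin-dependent enzymes (Kdm1a and Kdm1b), the 2 JmjC demethylases of H3K27 and the 4 of H3K4 (Kdm5a to Kdm5d) gave 0 calls by edgeR in the 9 contrasts made, with 10 of 72 tests at an unadjusted p under 0.05 and 1 call by DESeq2, of Kdm5b in Tuft against Stem. Kdm6a (chrX:18162575-18279936, plus strand) is an X-linked eraser of the PRC2 mark. Its normalized counts were 982, 646 and 701 in the Stem libraries, 656, 455 and 765 in AbsPro, 993, 1092, 713 and 824 in SecPDG, 481, 606, 777, 867 and 795 in Tuft, 361, 438, 270, 617 and 604 in enterocytes and 298 and 1201 in EEC. All enterocyte libraries lay below the Stem libraries, with a log2 change of -0.76 ± 0.32 (padj 0.0384). Kdm6b (chr11:69398508-69413675, minus strand), its inducible paralog, spread widely within types. Stem libraries held 4137, 2388 and 3036 normalized counts of Kdm6b, AbsPro 2548, 3450 and 3308, SecPDG 3484, 3931, 2661 and 2814, Tuft 4390, 2319, 3791, 2812 and 2796, enterocytes 1495, 1724, 1027, 2465 and 1685 and EEC 1680 and 6966. The EEC libraries held both a value below all of Stem and the highest value of all. Its log2 change was -0.92 ± 0.33 in enterocytes (padj 0.0161) and 0.45 ± 0.42 in EEC (padj 0.375).

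In the 10 JmjC demethylases of H3K36 and H3K9, Kdm2b fell in enterocytes, and Kdm7a and Kdm4c rose in EEC. Kdm7a (chr6:39136623-39206789, minus strand) removes methyl groups from H3K9 and H3K27. Normalized counts of Kdm7a were 781, 645 and 948 in Stem, 1274, 1003 and 1880 in AbsPro, 1059, 1947, 1425 and 1672 in SecPDG, 1289, 1275, 1699, 1852 and 2004 in Tuft, 1113, 1439, 1007, 1978 and 1562 in enterocytes and 1047 and 3644 in EEC. Every library of the other 5 types lay above the Stem range, from 645 to 948. The EEC mean was 3.01-fold that of Stem (padj 0.000903), lost without EEC 2 (log2 change 0.40, adjusted p 0.484). In the other types the log2 changes were 0.80 in AbsPro (padj 0.439), 0.94 in SecPDG (padj 0.084), 1.04 in Tuft (padj 0.0146) and 0.85 in enterocytes (padj 0.0251), and with the size factors of DESeq2 SecPDG (0.94, padj 0.00235), Tuft (1.24, padj 4.24e-05) and enterocytes (1.38, padj 7.94e-06) were called. Kdm4a, which removes trimethyl marks of H3K9 and H3K36, was not called by edgeR, although all Tuft libraries (2054 to 4235 normalized counts) lay above Stem (1625 to 1815); its log2 change was 0.78 (padj 0.0379), and DESeq2 called it in Tuft against Stem (0.99, adjusted p 1.41e-06) and against SecPDG (1.05, adjusted p 7.42e-08). Kdm4d lay too low to be called, with a mean of 0.64 normalized counts in Stem, 52.1 ± 9.42 (SD, n = 5) in enterocytes and 54.0 in EEC, whose 2 libraries held 4.85 and 103.

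Kdm4c (chr4:74242497-74405860, plus strand) removes trimethyl marks of H3K9 and H3K36. Kdm4c stood at 404, 305 and 546 normalized counts in the Stem libraries, 659, 507 and 747 in AbsPro, 532, 906, 555 and 747 in SecPDG, 776, 559, 657, 637 and 710 in Tuft, 442, 563, 543, 866 and 678 in enterocytes and 857 and 1039 in EEC. Both EEC libraries exceeded all of Stem, by 2.28-fold on average (padj 0.0067). The call was lost without Stem 1, Stem 2, SecPDG 2 or EEC 2 (log2 change 0.90 to 1.16, adjusted p 0.0115 to 0.0449). DESeq2 called Kdm4c higher than Stem in SecPDG (0.71, adjusted p 0.00804), Tuft (0.90, adjusted p 9.19e-05) and enterocytes (1.11, adjusted p 6.31e-07) as well, where edgeR gave log2 changes of 0.70, 0.68 and 0.57.

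Acetyltransferases gave 2 genes with calls. Kat2a (Gcn5), the catalytic subunit of the SAGA and ATAC coactivators, fell 2.12-fold in Tuft (padj 0.00395), 2.9-fold in enterocytes (padj 4.39e-05) and 3.27-fold in EEC (padj 0.00074). The Tuft call of Kat2a was lost without Stem 1 or Tuft 2 (log2 change -1.03 and -0.99, adjusted p 0.019 and 0.0158). Its paralog Kat2b was not called by edgeR, with log2 changes against Stem of 0.07 to 0.76, while DESeq2 called it in Tuft and enterocytes. Among the 5 MYST enzymes only Kat7, which acetylates H3K14, fell, in enterocytes, a call lost without Stem 1, Enterocyte 2, Enterocyte 3 or Enterocyte 5 (log2 change -0.94 to -0.82, adjusted p 0.0117 to 0.029) and under DESeq2 (-0.42, adjusted p 0.0995).

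Of the 4 class I deacetylases, Hdac1 and Hdac2, the enzymes of the NuRD, Sin3 and CoREST complexes, and Hdac3, that of the NCoR and SMRT corepressors, fell in enterocytes, and Hdac8 was not called. Hdac2 (chr10:36974544-37001889, plus strand) was 3.55-fold lower there (padj 2.98e-06). The libraries gave 1535, 2220 and 2194 normalized counts in Stem, 1494, 1453 and 1513 in AbsPro, 1241, 1642, 1887 and 1809 in SecPDG, 1025, 1010, 1000, 1259 and 1708 in Tuft, 304, 480, 386, 900 and 714 in enterocytes and 786 and 932 in EEC. The enterocyte libraries lay below every library of the other types except EEC 1. Hdac1 (chr4:129516104-129542713, minus strand), its paralog, fell 2.39-fold in enterocytes (padj 0.000647). Its normalized counts were 1069, 983 and 1070 in the Stem libraries, 1087, 1030 and 955 in AbsPro, 361, 845, 508 and 857 in SecPDG, 641, 549, 729, 726 and 978 in Tuft, 472, 512, 270, 545 and 379 in enterocytes and 577 and 1171 in EEC. Unlike those of Hdac2, the EEC values of Hdac1 straddled the Stem values, with the higher one above all of Stem. Whether the paralogs differ in EEC was not tested. Hdac3 fell in Tuft as well, 2.09-fold (padj 0.00707), a call lost without Stem 1, Stem 2, Tuft 1, Tuft 2 or Tuft 3 (log2 change -1.16 to -0.97, adjusted p 0.0121 to 0.0267), and in EEC, 2.77-fold (padj 0.0037), lost without EEC 1 (-0.95, adjusted p 0.0517).

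Class IIa deacetylases, which shuttle between nucleus and cytoplasm, went both ways. Hdac7 (chr15:97792664-97844502, minus strand) fell 3.58-fold in enterocytes (padj 1.08e-05). Stem libraries held 793, 711 and 588 normalized counts of Hdac7, AbsPro 312, 398 and 260, SecPDG 229, 440, 499 and 440, Tuft 685, 448, 274, 407 and 345, enterocytes 171, 184, 283, 153 and 179 and EEC 522 and 723. Enterocytes lay below every Stem library, while the EEC pair overlapped Stem. Hdac4 also fell in enterocytes, a call lost without Stem 1, Enterocyte 2, Enterocyte 3 or Enterocyte 5 (log2 change -0.98 to -0.74, adjusted p 0.01 to 0.0636) and under DESeq2 (-0.50, adjusted p 0.208). Hdac5 was not called by edgeR, while DESeq2 called it higher in EEC (0.94, adjusted p 0.00845).

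Hdac9 (chr12:34047580-34917095, minus strand) was the only enzyme gene called higher in enterocytes. Normalized counts of Hdac9 were 18.4, 72.3 and 20.2 in Stem, 25.4, 18.7 and 19.7 in AbsPro, 0, 19.9, 33.7 and 11.8 in SecPDG, 56.1, 203, 119, 124 and 17.6 in Tuft, 317, 236, 247, 156 and 156 in enterocytes and 445 and 74 in EEC. All enterocyte libraries and both EEC libraries exceeded every Stem library, at low counts. It was 5.8-fold higher in enterocytes (log2 fold change 2.54 ± 0.56, padj 0.00022) and 6.21-fold higher in EEC (padj 0.00151) by edgeR's quasi-likelihood test. The EEC call was lost without EEC 1 (log2 change 0.79, adjusted p 0.685) and without Stem 3 (2.19, adjusted p 0.0187). The estimated background made up 28.8% of the enterocyte mean and 28.4% of the EEC mean; with background taken off, the log2 changes were 2.60 (padj 0.000739) and 2.54 (padj 0.00837). Without the 4 libraries in which over 75% of reads fell on no gene (Enterocyte 1 to 3 and EEC 1), they were 2.14 (padj 0.0181) and 1.01 (padj 0.58).

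Hdac6 (chrX:7930120-7947889, minus strand), the cytoplasmic deacetylase of tubulin, rose in EEC. Hdac6 stood at 496, 484 and 294 normalized counts in the Stem libraries, 404, 283 and 350 in AbsPro, 214, 465, 273 and 426 in SecPDG, 648, 338, 473, 645 and 613 in Tuft, 165, 209, 191, 240 and 186 in enterocytes and 653 and 3254 in EEC. EEC 2 was far above all other libraries, EEC 1 lay just above the highest Tuft library, and the enterocytes lay below all of Stem. Hdac6 was 4.7-fold higher in EEC than in Stem (log2 fold change 2.23 ± 0.39, padj 9.12e-06), and without EEC 2 the change was 0.62 (adjusted p 0.27). Hdac10 (chr15:89123307-89128700, minus strand), a deacetylase of polyamines, fell 2.3-fold in Tuft (padj 0.00761). The libraries gave 246, 562 and 402 normalized counts in Stem, 451, 490 and 354 in AbsPro, 129, 247, 200 and 230 in SecPDG, 63.5, 180, 135, 237 and 247 in Tuft, 190, 187, 213, 338 and 323 in enterocytes and 360 and 289 in EEC. Tuft and Stem overlapped, through Stem 1. The call was lost without Stem 2, Stem 3, Tuft 1, Tuft 2 or Tuft 3 (log2 change -1.27 to -0.89, adjusted p 0.0114 to 0.0733) and under DESeq2 (-1.03, adjusted p 0.0162). Hdac11, the class IV enzyme, fell in enterocytes.

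**Figure D5:**
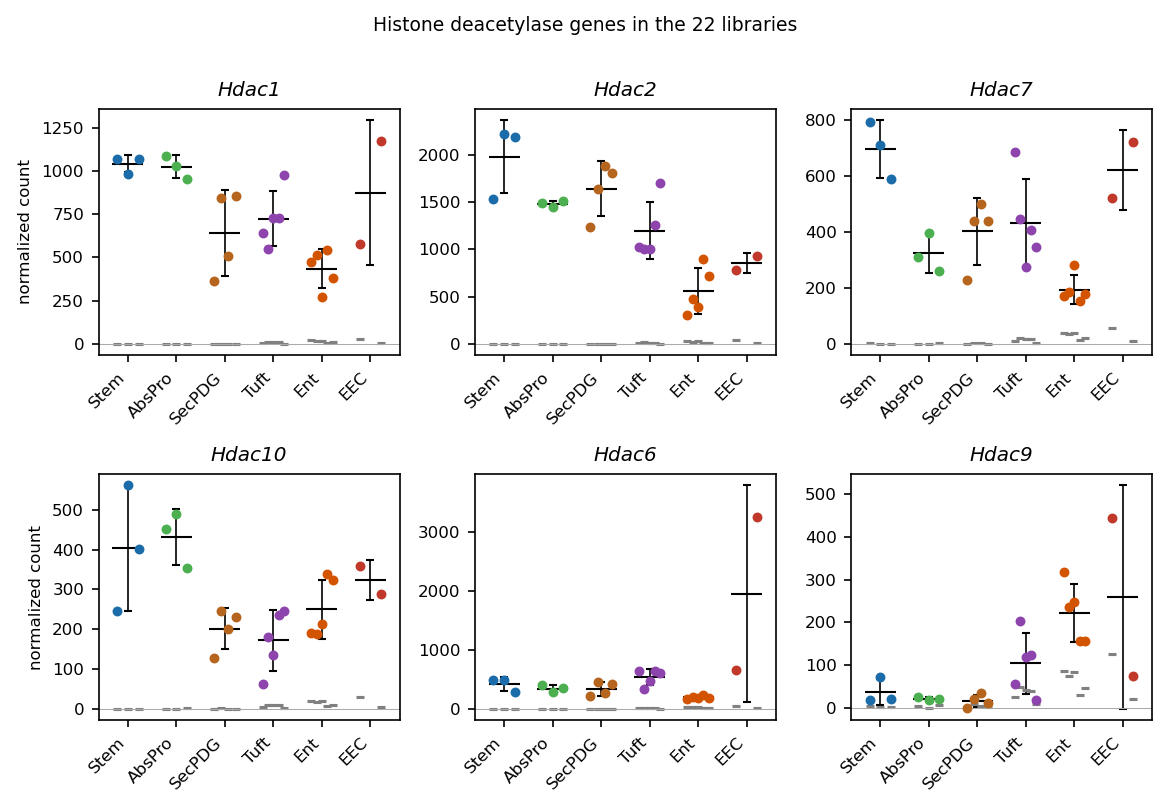
Normalized counts (vertical axes, linear and including 0) of 6 histone deacetylase genes in each library (points) of the 6 cell types, with mean (line), SD (bars) and the background estimated for that gene in each library (grey dashes). Hdac1, Hdac2 and Hdac7 are lowest in enterocytes, the EEC mean of Hdac6 lies between 653 and 3254, and for Hdac9 the dashes reach a visible part of the enterocyte and EEC values.

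The 7 sirtuins, deacetylases and deacylases that consume NAD and sit in nucleus, cytoplasm or mitochondria, gave 0 calls by edgeR or DESeq2 in the 9 contrasts, with 6 of 63 tests at an unadjusted p under 0.05. By edgeR, between 1.02% and 38.4% of all genes were called in each contrast, and the sirtuins were not tested against them. Their median log2 change against Stem was 0.28 in AbsPro, -0.04 in SecPDG, 0.14 in Tuft, -0.21 in enterocytes and -0.10 in EEC. Single members ranged in enterocytes from -0.41 to 0.46 and in SecPDG from -1.33 to 0.84.

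A further 4 contrasts set the progenitor types against each other and the mature types against AbsPro or SecPDG. In SecPDG against AbsPro, 1 of 68 enzyme genes was called, Setd4, against 6.43% of all genes (3.45% higher, 2.98% lower). Enterocytes against AbsPro, the later absorptive step, gave 1 gene higher, Hdac9, and 14 lower, 22.1% of the 68 in all, against 27.9% of all genes (14.2% higher, 13.8% lower). The 14 called lower were Ezh2, Suz12, Whsc1, Setd1b, Prmt1, Prmt3, Prmt5, Prmt7, Kdm2b, Kat2a, Hdac1, Hdac2, Hdac3 and Hdac11. Prmt5 fell 3.57-fold (padj 2.13e-05), Prmt1 3.21-fold (padj 0.000114) and Ezh2 2.12-fold (padj 0.00516), the last lost without AbsPro 2, Enterocyte 2 or Enterocyte 3 (log2 change -1.13 to -0.98, adjusted p 0.0133 to 0.0183), and Hdac9 rose 10.2-fold (padj 0.000105). Only Prmt5 was still called in this contrast without Enterocyte 1 to 3 and EEC 1, which leaves 2 enterocyte libraries. With size factors of DESeq2 the split was 3 higher and 7 lower, and the DESeq2 test did not call Ezh2, Hdac1, Hdac11, Kdm2b, Prmt7 or Setd1b (adjusted p 0.0126 to 0.153). Without EEC 1, 37 enzyme genes were called in this contrast. Calls of Suz12 (log2 change -1.02, adjusted p 0.0128) and Hdac3 (-1.06, adjusted p 0.0103) were lost without Enterocyte 3, that of Kat2a without AbsPro 2 (-1.07, adjusted p 0.0139), those of Setd1b without AbsPro 2 or Enterocyte 3 and those of Kdm2b without AbsPro 2, Enterocyte 2 or Enterocyte 3 (-1.05 to -0.88, adjusted p 0.0119 to 0.0361).

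Tuft against SecPDG gave 0 calls by edgeR among the enzyme genes (9 at an unadjusted p under 0.05, 4 called by DESeq2), against 5.8% of all genes (5.2% higher, 0.599% lower). EEC against SecPDG gave 5 higher (Hdac6, Hdac9, Kmt2a, Prmt2 and Setd4) and 4 lower (Ezh2, Suz12, Prmt1 and Prmt5), 13.2% of the 68, against 36.7% of all genes, 19.3% higher and 17.4% lower; with size factors the split was 17 and 3, and by library totals 14 and 3. Hdac6 was 5.86-fold higher (padj 3.11e-07) and without EEC 2 its log2 change was 0.94 (adjusted p 0.082). Kmt2a, an H3K4 methyltransferase, was 3.14-fold higher (padj 0.000605), and 0.45 on the log2 scale without EEC 2 (adjusted p 0.398). Setd4 was 6.59-fold higher (padj 0.000756) and without EEC 1 its log2 change was 1.96 (adjusted p 0.0616). Hdac9 was 14.1-fold higher (padj 0.000101), and 1.93 on the log2 scale without EEC 1 (adjusted p 0.236). Prmt2, at 7.83-fold (padj 0.00011), turned to -0.28 on the log2 scale without EEC 2 (adjusted p 0.894). Among those that fell, Prmt5 was 3.96-fold lower (padj 0.00024), Prmt1 3.21-fold (padj 0.00161), Suz12 2.95-fold (padj 0.00198; without EEC 1, log2 change -1.31, adjusted p 0.0114) and Ezh2 2.74-fold (padj 0.00423; without SecPDG 3, SecPDG 4 or EEC 1, -1.40 to -1.36, adjusted p 0.0125 to 0.0142; by DESeq2 -0.78, adjusted p 0.0235).

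Processing of the transcripts gave few members to test. Skipped exons could be tested in 6 of the genes (Kat5, Kat7, Kmt2c, Kmt2e, Prmt1 and Sirt2), in 21 tests against Stem with values from at least 2 libraries in both groups. By edgeR's quasi-likelihood test on inclusion and skipping counts, 0 were called at an adjusted p under 0.05. Of the 21, 1 had an unadjusted p under 0.05, and the lowest adjusted p was 0.393. A further 3 tests, all in EEC, had a value from only 1 EEC library and are not read. Among all events tested, 0.427% were called in enterocytes and 0% in AbsPro, SecPDG and Tuft. The share of transcripts ending at the distal polyadenylation site could be tested by limma for 28 genes in 82 tests, with 0 called. Of these tests, 2 had an unadjusted p under 0.05, and the lowest adjusted p was 0.397. Among all transcripts tested, 0% were called in AbsPro and EEC, 0.0237% in SecPDG, 0.0614% in Tuft and 0.0408% in enterocytes. The 2 were Kdm5b in AbsPro, 0.75 in Stem and 0.28 in AbsPro (adjusted p 0.922), and Kat6a in enterocytes, 0.27 and 0.184 (adjusted p 0.563).

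The partners of these enzymes, 83 genes for complex subunits and for other enzymes of histone marks, were tested in the same fit. Against Stem, 0 were called in AbsPro, where 1.02% of all genes were. In SecPDG 1 rose and 1 fell (1.2% each, against 5.84% of all genes higher and 2.76% lower). In Tuft 1 rose and 9 fell (1.2% and 10.8%, against 13.5% and 7.31%). In enterocytes 0 rose and 35 fell (0% and 42.2%, against 18.5% and 19.8%). In EEC 3 rose and 17 fell (3.61% and 20.5%, against 18.6% and 15.8%). The partners were not tested against all genes. Their counts are given with TMM alone, although the split into higher and lower changed with the scaling for the enzyme genes. The medians in the 5 types were -0.13, -0.24, -0.38, -0.83 and -0.59 on the log2 scale. Among PRC2 subunits, the histone binder Rbbp4 fell in enterocytes (log2 change -1.91, padj 2.01e-06) and EEC (-1.30, padj 0.00701), Mtf2, a targeting subunit, was 3.65-fold higher in SecPDG (padj 0.000163), and Jarid2, a further targeting subunit, 2.35-fold higher in Tuft (padj 0.00301). Suv39h1, the H3K9 methyltransferase of heterochromatin, fell in Tuft (-1.55, padj 0.000398), enterocytes (-2.78, padj 6.39e-08) and EEC (-2.37, padj 0.000242). Of NuRD, Mta1 fell in Tuft (-1.49, padj 0.000126), enterocytes (-2.31, padj 4.4e-08) and EEC (-2.25, padj 3.36e-05). Rcor2, a CoREST subunit, was the partner with the largest increase, 2.85 in EEC (padj 0.000477), from a Stem mean of 32.8 normalized counts to 227. Over all genes tested, the median log2 change was -0.30 in enterocytes and in EEC.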

How the data were processed

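RNA from 22 sorted samples was sequenced. Per the labels and the study's methods, the authors aligned trimmed paired reads to mm10 with STAR 2.5.2a and deposited raw counts per gene symbol from HTSeq 0.6.1p1, counted without strand; lines that name no gene were left out. The authors also deposited, for each type against Stem, read counts of exon inclusion and skipping, and the fraction of transcripts using the distal polyadenylation site; tables holding only their own comparisons (expected junction changes, fold changes, p-values) were not used.

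Groups follow the labels. Counts were filtered with filterByExpr, scaled with TMM and fitted over all 22 libraries by edgeR 4.0.16 (quasi-likelihood, R 4.3.3), with cell type as the term. A call needs an adjusted p under 0.01 over all genes and a mean of 50 normalized counts, as in the study's thresholds. Inclusion and skipping counts of exons, with a mean of at least 10 reads per library, were tested by edgeR's quasi-likelihood test with a term for each library. Distal site shares, with a pseudocount of 0.01, were tested with limma 3.58.1. Both were called at an adjusted p under 0.05. Scripts were tested on simulated data. Standard errors come from an estimate of the spread per gene that all 22 libraries share. Those given for EEC therefore do not measure the spread of the EEC libraries by themselves. Leaving out a library of any type changes this shared estimate, also for contrasts between other types. Depth was 4122122 to 22462518 counts. Positions are from GENCODE M21 (GRCm38, the mm10 build), and exon lengths from the same annotation.

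The members and lists were chosen with earlier results of these data known. Named genes, 25 in all, were the 5 called members with the largest rise and fall in each comparison with Stem, the 3 in each further contrast, the members named by the study, the PRC2 core, 3 paralog pairs and the 3 highest per kilobase. Alternatives were DESeq2 1.42.0, other scalings, no filter or minimum mean, another threshold, thinned counts, the replicate number as a term, only the cell types compared, and each library left out; 3 were added after seeing the data (the earlier edgeR fit, background taken off, and leaving out libraries with over 75% of reads on no gene).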

Additional observations from a re-analysis of the deposited data

Results flagged for a closer look

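In groups of 4 or 5 libraries, 5 of 75 tested sets of values of the named genes held a library further from the others than Dixon's criterion allows, a distance that chance alone gives in about 1 of 20. Prmt1 and Prmt5 both stood apart in Tuft 5, with 862 normalized counts of Prmt1 against 414 to 523 in the other Tuft libraries and 1008 of Prmt5 against 501 to 641. Prmt2 and Prmt7 stood apart in SecPDG 1, with 3.78 normalized counts of Prmt2 against 48.5 to 55.8 in the other SecPDG libraries, and 798 of Prmt7 against 599 to 629. Hdac7 was 283 in Enterocyte 3 against 153 to 184 in the other enterocyte libraries, still below each Stem library.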

How the results depend on the processing

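Of the alternatives, in AbsPro against Stem (0 called) DESeq2 called 2 enzyme genes and a fit of the 2 cell types alone 1. In SecPDG against Stem (1 called), DESeq2 called 4, its size factors 3, library totals 12, an adjusted p under 0.05 2, thinned counts 0, the fit of 2 cell types 7, the earlier edgeR fit 0, background taken off 0, and the fit without libraries over 75% on no gene 6. In Tuft against Stem (8), the same order gave 15 (DESeq2), 14 (size factors), 16 (adjusted p under 0.05), 4 (thinned), 14 (2 cell types), 3 (earlier fit), 5 (background) and 14 (without those libraries). In enterocytes against Stem (20) the last gave 13. In EEC against Stem (14), an adjusted p under 0.05 gave 22 and 2 cell types alone 5. In SecPDG against AbsPro (1), library totals gave 4, thinned counts, the earlier fit and background taken off 0 each, and 2 cell types and the fit without those libraries 2 each. In enterocytes against AbsPro (15), library totals gave 8, an adjusted p under 0.05 23, the earlier fit 8, background 7 and the fit without those libraries 1. In Tuft against SecPDG (0), DESeq2 gave 4, size factors 2, library totals 3, an adjusted p under 0.05 3, 2 cell types 2, background 2 and the fit without those libraries 3. In EEC against SecPDG (9), DESeq2 gave 22, size factors 20, library totals 17 and an adjusted p under 0.05 21.

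With 1 library left out, counts ran from 23 to 47 across the cell types, 18 to 42 in enterocytes, 14 to 24 in EEC, 4 to 15 in Tuft, 0 to 3 in SecPDG and 0 to 0 in AbsPro against Stem, 0 to 1 in SecPDG and 10 to 37 in enterocytes against AbsPro, and 0 to 3 in Tuft and 8 to 20 in EEC against SecPDG; skipped exons stayed at 0, and distal sites reached 1 when 1 EEC library was left out. The highest counts came without EEC 1 or EEC 2. Prmt2 reversed without EEC 2, to -0.83 in EEC against Stem and -0.28 against SecPDG, the lowest of ranges that reached 3.04 and 3.54 without EEC 1. The cause of these shifts was not tested, beyond what each alternative changes by its construction.

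Replicate numbers are not shown to pair the samples: of 44 pairs with the same number, 16 had deviations correlated above 0.1 (lowest -0.393, highest 0.488). With the replicate block, 13 were called in Tuft against Stem, 2 in SecPDG against AbsPro and 2 in Tuft against SecPDG. Other counts stayed within 1.5 times, and 0 of the 50 named calls were lost. Of these 50, the earlier edgeR fit lost 16 and background taken off 12. DESeq2, thinned counts and the 2 cell types alone lost 10 each. The largest loss came without the libraries over 75% on no gene, which leaves EEC 2 alone. Under all alternatives, single libraries left out aside, 2 genes were called against Stem in Tuft, 12 in enterocytes and 5 in EEC (Ezh2, Hdac6, Kdm7a, Prmt1 and Prmt5). For the exon and distal site tables no paired analysis was possible because their columns carry no replicate number. Depth limits EEC most, with 2 libraries, 1 of them of 4122122 counts.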
